A study of Mus musculus with 1 sample.

Results

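The clustered and linker histone genes of the fetal mouse testis were described in single cells of 1 control library. The 68 genes were taken by symbol, as every feature whose name starts with H1f, H2ac, H2bc, H3c, H4c or with the older prefixes Hist1 to Hist4, out of 22631 features in the count matrix. They comprised 10 linker histone genes (H1), 17 H2A, 17 H2B, 12 H3 and 12 H4 genes. The library held dissociated whole testes from 12 pooled controls, labelled wild type and embryonic day (E) 14.5, while the design text also names an age 1 day younger. Per the study's methods these controls carried the loxP-flanked Nr5a1 L2/L2 alleles without the AMH-cre transgene, on a mixed C57BL/6 and 129/SvPass background, so no recombination of Nr5a1 was designed into them. The mutant library of the study was not analysed here. With 1 library of pooled animals there was no biological replicate and no test between conditions or cell types, so intervals, given in parentheses at the 95% level (exact Poisson for levels, exact conditional for ratios), cover counting error only.

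Core histones H2A, H2B, H3 and H4 form the octamer that DNA wraps around, and linker histone H1 binds where the DNA enters and leaves it. Most clustered histone genes are replication-dependent: they lie in arrays with no introns, are transcribed in S phase, and their mRNAs end in a conserved stem-loop bound by stem-loop binding protein (SLBP) instead of a poly(A) tail. A minority of them also make polyadenylated mRNA, and the replacement linker histone genes H1f0 and H1f10 lie outside the arrays and make polyadenylated mRNA through the cell cycle. The 3′ kit used here primes on poly(A), so a unique molecular identifier (UMI) from a histone gene is 1 captured 3′ end of a polyadenylated transcript, or of one primed elsewhere on adenines, and the counts are not total histone mRNA. For the same reason no scaling by transcript length was made, and a level is given as UMIs of the gene per 1000000 UMIs of the cells (CPM).

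Gene models matched all 68 members (GENCODE vM21, build GRCm38). Many members carry an older symbol in that release, such as Hist1h1b for H1f5 and Hist1h2ae for H2ac8. The models used for counting may therefore differ from those read here, which was not tested. Of these, 54 lay on chromosome 13, 10 on chromosome 3, and 2 each on chromosomes 6 (H1f10 and H1f8) and 15 (H1f0 and H1f7), and 62 had 1 exon. A stem-loop, searched past the end of the coding sequence on the transcript strand as GG, any 3 bases and T, then 4 loop bases, then A, any 3 bases and CC, with arms of 6 bases that pair exactly, was present in 43 of the 68, starting 21 to 58 bases past the coding end. Across 21901 protein-coding genes 0.95% held such a match, 165 of them outside the list. The hits are letters in the 3′ untranslated region and not shown sites of binding. The following lines show 1 gene of each histone type and a variant H4 form, with the 16 bases of the stem-loop in capitals. The loop is shown because replication-dependent mRNAs end in it instead of a poly(A) tail, though genes with a loop also gave UMIs here.
H1f4: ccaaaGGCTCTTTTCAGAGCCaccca
H2ac8: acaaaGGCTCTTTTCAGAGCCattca
H2bc6: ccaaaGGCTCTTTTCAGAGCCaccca
H3c3: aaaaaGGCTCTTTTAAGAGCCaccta
H4c4: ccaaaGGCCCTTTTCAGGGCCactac
H4c9: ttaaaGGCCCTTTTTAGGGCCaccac
These sequences, 5′ to 3′ on the transcript strand, come from chr13:23621777-23621802 (minus strand), chr13:23570663-23570688 (minus strand), chr13:23585526-23585551 (minus strand), chr13:23745042-23745067 (minus strand), chr13:23581945-23581970 (plus strand) and chr13:22040961-22040986 (minus strand). The form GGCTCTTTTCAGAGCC, seen in H1f4, H2ac8 and H2bc6, was shared by 24 members of the H1, H2A, H2B and H3 types, while 6 H4 genes held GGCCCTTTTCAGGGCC. Of the 51 members whose model ran at least 50 bases past the coding end, 8 held no match, among them H1f0, H1f10 and H2bc4. Only spliced models were searched, so the intron of H2bc4, whose model has 2 exons, was not read. The remaining 17 members without a match, H1f5 included, had models ending within 50 bases of the coding end, so few or no letters were there to search.

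Promoter letters were read from RefSeq (GRCm38.p6) for the 55 members with an entry, from 250 bases before to 50 after the start, on both strands. The CCAAT box letters were present in 46 of the 55 (83.6%, against 37.9% of 27025 promoters). TATAAA was present in 30 (54.5%, against 14.2%) and the octamer ATTTGCAT, known from H2B promoters, in 12 (21.8%, against 1.75%). H1f0, H1f10, H1f7, H4c2 and H4c8 held none of the 3. The octamer was not confined to H2B genes, since H2ac8, H2ac4, H2ac6 and H2ac20 also held it. Neighbours such as H2ac8 and H2bc8 start close together on opposite strands. Their windows can hold the same bases, so the promoters are not all separate.

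The matrix held 5421 distinct barcodes and 72595083 UMIs, and 3821 cells with 54924880 UMIs (median 12126 UMIs and 3586 genes per cell) remained after filters on genes, doublets and outliers. The 68 genes and Mki67 were left out of the variable genes used for clustering, and clusters were named from marker lists. Mitochondrial share and S and G2/M scores were regressed out beforehand, and the G2/M score has Mki67 among its genes. The 6 classes of at least 100 cells were Sertoli-like (854 cells), germ-like (253), Leydig-like (324), interstitial-like (1392), peritubular myoid-like (528, below myoid-like) and coelomic epithelium-like (148, below coelomic-like). Median depth differed between them, from 9341 UMIs in interstitial-like to 36155 in germ-like cells. The class names are limited for interstitial-like cells and for 192 of the 324 Leydig-like cells, a cluster led by Nppc and Vsnl1, because none of their marker list was among the 10 leading genes of those clusters.

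The 68 genes together held 57716 UMIs, 0.105% of all UMIs of the kept cells. Counts were concentrated in few genes: H1f0, H1f10 and H1f5 held 51.1% of them, and these with H2ac8, Hist1h2ap and H2bc4 held 73.4%. By type the linker histones held 61.2%, H2A 18.8%, H2B 10.4%, H4 6.29% and H3 3.33%. The 26 members with at least 200 UMIs (7 H1, 7 H2A, 5 H2B, 4 H3 and 3 H4 genes) held 96.2%, and the other 42 summed to 2201 UMIs. Among those 42, H1f7, Hist1h2bq and Hist1h4m were at 0, and the germline variant genes were scarce, with 44 UMIs for H1f6 (testis-specific H1t), 8 for H1f8 (oocyte H1), and 1 each for H2ac1 and H2bc1 (testis-specific TH2A and TH2B). A count of 0 in this library allows up to 3 UMIs.

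Reads of some members cannot be assigned with certainty. Within the last 400 bases of the gene models, 46 of the 68 shared at least 1 window of 90 bases with another gene, and 28 shared at least 50% of their windows. Among the 26 leading members the shared part was at least 50% in Hist1h2ap, H1f4, H2ac4, H2ac10 and H3c6, so their levels are uncertain. The H1f4 end is shared with H2bc6, whose model runs across it on the same strand. H1f0, H1f10, H1f5 and H2bc4 shared no window.

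By class, the summed level was highest in interstitial-like, myoid-like and coelomic-like cells and lowest in germ-like cells. It was 1536 CPM (1516 to 1557) in interstitial-like, 1531 CPM (1502 to 1559.9) in myoid-like, 1461 CPM (1416 to 1506) in coelomic-like, 889 CPM (872 to 905) in Sertoli-like, 740.0 CPM (718 to 762) in Leydig-like and 198 CPM (189 to 208) in germ-like cells. The intervals of the interstitial-like and myoid-like levels overlap, and the ratio between those classes was 0.997-fold (0.974 to 1.02). Sertoli-like cells stood 4.48-fold (4.26 to 4.72) above germ-like cells. The Leydig-like level combined unlike clusters. Cluster 6, led by Nppc and Vsnl1, stood at 1080 CPM (1041 to 1121), above the Sertoli-like level, with Mki67 at 111 CPM. Cluster 8 stood at 469 CPM (446 to 493), with Mki67 at 1.81 CPM. The interstitial-like level rested largely on 1 of its clusters. Cluster 5 held 16.5% of the cells of the class and 57.0% of its member UMIs, and without it, an alternative chosen after seeing the data, the class stood at 850.4 CPM (833 to 868), 0.957-fold (0.931 to 0.984) the Sertoli-like level. Mki67, a marker of cycling cells, was also lowest in germ-like cells, at 186 CPM in coelomic-like, 184 in interstitial-like, 184 in myoid-like, 133 in Sertoli-like, 50.1 in Leydig-like and 36.5 in germ-like cells. Without cluster 5 Mki67 was 84.7 CPM (79.3 to 90.4) in interstitial-like cells, 0.637-fold (0.587 to 0.691) the Sertoli-like level.

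All 26 leading members had their lowest level of the 6 classes in germ-like cells, as had 38.3% of the 11122 genes with at least 200 UMIs. For scarce members such as H3c1 and H2bc14 the germ-like level lay close below the Leydig-like one on few UMIs, so that order is uncertain. The germ-like class was the highest for 0 of the 26 (27.4% of genes). The interstitial-like, myoid-like or coelomic-like class was highest for 23 (35.8% of genes), the Sertoli-like class for 2, H2bc4 and H2ac6 (22.6%), and the Leydig-like class for 1, H1f2 (14.2%). Without cluster 5 the interstitial-like, myoid-like or coelomic-like class was highest for 23 (36.1% of genes), but the interstitial-like class itself for 0 of them. Against Sertoli-like cells the interstitial-like level was higher for 22 of the 26 members, and without cluster 5 for 2, H1f0 and H1f10. The share of all genes higher in interstitial-like than in Sertoli-like cells was not computed. These counts therefore describe the members without a background. Leaving out cluster 5 took cells high in Mki67 from the interstitial-like class only, and left its Mki67 at 0.637-fold the Sertoli-like level. In the germ-like class the member sum rested on 1764 UMIs.

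**Figure D1:**
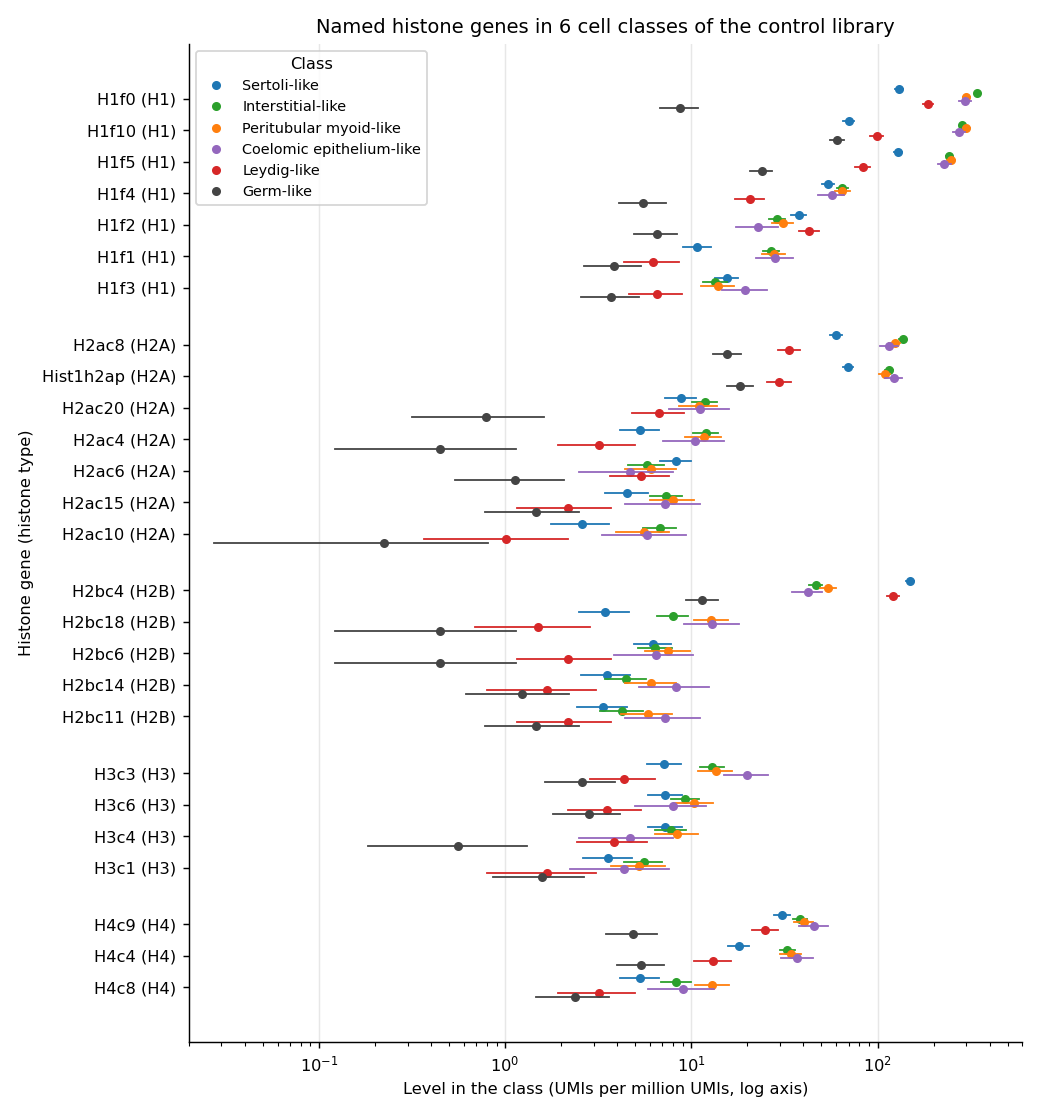
Level of each of the 26 leading histone genes in the 6 classes, in CPM on a log axis; points are the level and bars the exact 95% Poisson interval. Germ-like points are the lowest for every gene shown, though close to the Leydig-like ones for scarce genes such as H3c1. H2bc4 is highest in Sertoli-like cells (149 CPM) and Leydig-like cells (121 CPM).

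The linker histones made up most of the difference between interstitial-like and Sertoli-like cells. H1f0, the replacement H1.0 gene that is known to accumulate in differentiating cells, stood at 344 CPM (334 to 354) in interstitial-like, 131 CPM (124 to 137) in Sertoli-like and 8.65 CPM (6.83 to 10.8) in germ-like cells, with 299, 295 and 187 CPM in the myoid-like, coelomic-like and Leydig-like classes. H1f10, which encodes H1X, stood at 286 CPM (277 to 295) in interstitial-like and 70.1 CPM (65.6 to 74.9) in Sertoli-like cells, 4.08-fold (3.79 to 4.39) apart. Its germ-like level was 60.6 CPM (55.6 to 65.9), close below the Sertoli-like level, with a ratio of 1.16-fold (1.04 to 1.29), whereas the same ratio for H1f0 was 15.1-fold (12.0 to 19.2). Its other levels were 299.6 CPM in myoid-like, 273 in coelomic-like and 98.9 in Leydig-like cells. Without cluster 5 the interstitial-like levels were 284 CPM (274 to 294) for H1f0 and 232 CPM (223 to 241) for H1f10, still 2.17-fold (2.05 to 2.31) and 3.3-fold (3.06 to 3.57) the Sertoli-like ones.

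H1f1 to H1f5 are the replication-dependent linker genes of the chromosome 13 array. H1f5 was the most abundant of them, with 241 CPM (233 to 249.7) in interstitial-like, 247 CPM (236 to 259) in myoid-like, 229 CPM (211 to 247) in coelomic-like, 128 CPM (122 to 135) in Sertoli-like, 83.1 CPM (76.0 to 90.8) in Leydig-like and 23.8 CPM (20.7 to 27.3) in germ-like cells. Without cluster 5 its interstitial-like level was 59.4 CPM (54.9 to 64.2), 0.463-fold (0.422 to 0.507) the Sertoli-like one. H1f4 stood at 64.7 CPM in interstitial-like, 64.6 in myoid-like, 56.6 in coelomic-like, 54.2 in Sertoli-like, 20.6 in Leydig-like and 5.51 in germ-like cells. H1f2 ran in another order, with its highest level of 42.9 CPM (37.8 to 48.5) in Leydig-like cells, then 37.8 CPM (34.5 to 41.3) in Sertoli-like, 31.0 CPM (27.0 to 35.3) in myoid-like, 28.7 CPM (26.0 to 31.7) in interstitial-like, 22.7 CPM (17.5 to 29.1) in coelomic-like and 6.52 CPM (4.95 to 8.43) in germ-like cells. The Leydig-like and Sertoli-like intervals of H1f2 overlap. H1f1 stood at 26.8 CPM in interstitial-like, 27.7 in myoid-like, 28.1 in coelomic-like, 10.8 in Sertoli-like, 6.2 in Leydig-like and 3.82 in germ-like cells. H1f3 stood at 13.47 CPM in interstitial-like, 13.9 in myoid-like, 19.5 in coelomic-like, 15.5 in Sertoli-like, 6.54 in Leydig-like and 3.71 in germ-like cells, and its interstitial-like and Sertoli-like levels, 0.867-fold (0.707 to 1.06) apart, did not differ beyond counting error.

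Among the H2A genes, H2ac8 and Hist1h2ap carried most UMIs. H2ac8 stood at 136 CPM in interstitial-like, 124 in myoid-like, 116 in coelomic-like, 59.8 in Sertoli-like, 33.5 in Leydig-like and 15.6 in germ-like cells, and its interstitial-like level was 2.28-fold (2.1 to 2.49) the Sertoli-like one, but 0.524-fold (0.46 to 0.596) without cluster 5. Hist1h2ap stood at 116 CPM in interstitial-like, 109 in myoid-like, 122 in coelomic-like, 69.4 in Sertoli-like, 29.7 in Leydig-like and 18.3 in germ-like cells. The other 5 leading H2A genes were each below H2ac8 in every class. H2ac20, of the chromosome 3 array, stood at 11.8 CPM in interstitial-like, 10.9 in myoid-like, 11.2 in coelomic-like, 8.82 in Sertoli-like, 6.7 in Leydig-like and 0.787 in germ-like cells. H2ac4 stood at 12.0 CPM in interstitial-like, 11.6 in myoid-like, 10.5 in coelomic-like, 5.31 in Sertoli-like, 3.18 in Leydig-like and 0.45 in germ-like cells. Like H2ac8, both had their highest level in the interstitial-like class and their lowest in the germ-like class. Their myoid-like levels, 0.926-fold (0.697 to 1.22) and 0.974-fold (0.738 to 1.28) the interstitial-like ones, did not differ beyond counting error. Without cluster 5 their interstitial-like levels were 0.452-fold (0.31 to 0.647) and 0.594-fold (0.381 to 0.909) the Sertoli-like ones. H2ac15 stood at 7.35 CPM in interstitial-like, 7.95 in myoid-like, 7.22 in coelomic-like, 4.52 in Sertoli-like, 2.18 in Leydig-like and 1.46 in germ-like cells. H2ac10 stood at 6.77 CPM in interstitial-like, 5.54 in myoid-like, 5.77 in coelomic-like, 2.57 in Sertoli-like, 1.01 in Leydig-like and 0.225 in germ-like cells. H2ac6 was the exception among H2A genes, with its highest level in Sertoli-like cells, at 5.76 CPM in interstitial-like, 6.11 in myoid-like, 4.69 in coelomic-like, 8.27 in Sertoli-like, 5.36 in Leydig-like and 1.12 in germ-like cells.

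H2bc4 was the leading H2B gene and ran against most of the list across somatic classes. It stood at 149 CPM (143 to 156) in Sertoli-like and 121 CPM (113 to 131) in Leydig-like cells, against 54.4 CPM (49.1 to 60.1) in myoid-like, 46.4 CPM (42.9 to 50.2) in interstitial-like, 42.2 CPM (34.9 to 50.6) in coelomic-like and 11.5 CPM (9.35 to 13.9) in germ-like cells. The interstitial-like level was 0.311-fold (0.284 to 0.34) the Sertoli-like one, and with it the H2B sum was also lower there, at 89.4 against 183 CPM. The other 4 leading H2B genes were low. H2bc18 stood at 7.99 CPM in interstitial-like, 12.8 in myoid-like, 13.0 in coelomic-like, 3.43 in Sertoli-like, 1.51 in Leydig-like and 0.45 in germ-like cells. H2bc6 stood at 6.41 CPM in interstitial-like, 7.53 in myoid-like, 6.49 in coelomic-like, 6.24 in Sertoli-like, 2.18 in Leydig-like and 0.45 in germ-like cells. H2bc14 stood at 4.46 CPM in interstitial-like, 6.11 in myoid-like, 8.3 in coelomic-like, 3.51 in Sertoli-like, 1.68 in Leydig-like and 1.24 in germ-like cells, and H2bc11 at 4.25 CPM in interstitial-like, 5.82 in myoid-like, 7.22 in coelomic-like, 3.35 in Sertoli-like, 2.18 in Leydig-like and 1.46 in germ-like cells. Between interstitial-like and Sertoli-like cells the ratio was 1.03-fold (0.751 to 1.41) for H2bc6, 1.27-fold (0.852 to 1.91) for H2bc14 and 1.27-fold (0.841 to 1.92) for H2bc11, with intervals that include 1, so the counts do not order these classes for them.

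H3 genes were the least captured type. H3c3 stood at 12.9 CPM in interstitial-like, 13.49 in myoid-like, 19.8 in coelomic-like, 7.18 in Sertoli-like, 4.36 in Leydig-like and 2.59 in germ-like cells, H3c6 at 9.29 CPM in interstitial-like, 10.4 in myoid-like, 7.94 in coelomic-like, 7.26 in Sertoli-like, 3.52 in Leydig-like and 2.81 in germ-like cells, and H3c4 at 7.78 CPM in interstitial-like, 8.38 in myoid-like, 4.69 in coelomic-like, 7.26 in Sertoli-like, 3.85 in Leydig-like and 0.562 in germ-like cells. H3c1 was the scarcest of the 4, at 5.54 CPM in interstitial-like, 5.25 in myoid-like, 4.33 in coelomic-like, 3.59 in Sertoli-like, 1.68 in Leydig-like and 1.57 in germ-like cells. The H3 sum was 46.6 CPM (43.1 to 50.3) in interstitial-like, 33.5 CPM (30.4 to 36.8) in Sertoli-like and 11.6 CPM (9.45 to 14.0) in germ-like cells.

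The 3 leading H4 genes were H4c9, H4c4 and H4c8. H4c9 stood at 38.2 CPM in interstitial-like, 40.0 in myoid-like, 45.5 in coelomic-like, 30.8 in Sertoli-like, 25.0 in Leydig-like and 4.83 in germ-like cells. H4c4 stood at 32.8 CPM in interstitial-like, 34.2 in myoid-like, 37.2 in coelomic-like, 17.9 in Sertoli-like, 13.1 in Leydig-like and 5.39 in germ-like cells, and H4c8 at 8.28 CPM in interstitial-like, 12.9 in myoid-like, 9.02 in coelomic-like, 5.31 in Sertoli-like, 3.18 in Leydig-like and 2.36 in germ-like cells. Myoid-like and interstitial-like levels of H4c9 did not differ beyond counting error, at 1.05-fold (0.905 to 1.21). The core histone sum, H2bc4 included, stood at 529 CPM (517 to 542) in interstitial-like, 441 CPM (429 to 452) in Sertoli-like and 85.3 CPM (79.3 to 91.6) in germ-like cells, while the H1 sum stood at 1007 CPM (990.1 to 1024) in interstitial-like and 448 CPM (437 to 459.8) in Sertoli-like cells and held more of the difference between those classes. Without cluster 5 the core sum was 211 CPM (203 to 220.2) in interstitial-like cells, below the Sertoli-like level, and the H1 sum 639 CPM (624 to 654), above it.

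Single clusters spread more widely than the classes. Cluster 5, 230 interstitial-like cells with Mki67 at 529 CPM, held 3927 CPM (3857 to 3997) of the 68 genes, with H1f5 at 876 CPM (843 to 909) and H2bc4 at 8.72 CPM (5.75 to 12.7). H2ac8, Mxd3, H1f5 and Hist1h2ap led this cluster although the 68 genes and Mki67 were left out of the variable genes used for clustering. The levels of this cluster are given as a description. At the other end, cluster 8, 132 Leydig-like cells marked by the steroidogenic gene Cyp11a1, held 469 CPM (446 to 493) with H1f5 at 10.8 CPM (7.59 to 15.0), H2bc4 at 135 CPM (123 to 148) and Mki67 at 1.81 CPM (0.662 to 3.93). The 30 rete testis-like cells held 338 CPM (285 to 398), with H2bc4 at 128 CPM (95.9 to 167) and Mki67 at 4.73 CPM (0.572 to 17.1). Clusters 8 and 15, the latter being the rete testis-like one, had the lowest Mki67 of the 16 clusters and, after the Sertoli-like cluster, the highest H2bc4.

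Cells were then compared within each class by whether they held a Mki67 UMI. To keep depth equal, the 3655 cells with at least 5000 UMIs were thinned to 5000, and members with at least 20 UMIs in the class were compared. The minimum was on the sum over cells with and without a Mki67 UMI. A scarce member could thus pass mainly through the cells with one, as H3c3 did in Sertoli-like cells (21 UMIs with, 6 without). In that class H3c3, H2ac6, H2bc6, H4c8, H3c6, H2ac20, H1f1 and H1f3 each held under 20 UMIs in the cells without one. In interstitial-like and myoid-like cells most leading members also held under 20 there. The exceptions were H1f0, H1f10, H1f5, H2ac8, Hist1h2ap, H2bc4, H1f4, H4c9, H1f2 and H4c4. In Leydig-like cells H2ac8, Hist1h2ap, H4c4 and H1f4 were so scarce, and in germ-like cells H1f5, Hist1h2ap and H2ac8. In coelomic-like cells every compared member was, except H1f0, H1f10 and H2bc4. Those of them that were compared are among the members counted below. The counts and medians below hold only members that passed, and the background genes passed the same minimum. Cells with a Mki67 UMI were deeper before thinning, with medians of 18649 against 13974 UMIs in Sertoli-like and 11952 against 8961 in interstitial-like cells. A cell without a Mki67 UMI is not shown to lack the mRNA.

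Most of the members compared were higher in the cells with a Mki67 UMI in every somatic class. In Sertoli-like cells (192 with, 646 without) 17 of 18 compared members were at least 2-fold higher and 0 at least 2-fold lower, against 4.2% and 3.5% of all genes compared. In interstitial-like cells (381 and 945) 27 of 29 were higher and 0 lower (background 4.41% and 3.21%), and without cluster 5 (182 and 917 cells) 14 of 15 were higher and 0 lower (4.03% and 5.14%). Most of the 27 held under 20 UMIs in the 945 cells. Of the leading members with at least 20 there, H2bc4 and H1f2 alone were under 2-fold, at 1.46 and 1.98. In myoid-like cells (160 and 356) 19 of 20 were higher and 0 lower (4.4% and 3.6%), and in coelomic-like cells (60 and 83) 8 of 11 and 0 (5.61% and 3.03%). Those 8 coelomic-like calls all rest on members with under 20 UMIs in the cells without a Mki67 UMI. The other members compared there, H1f10, H1f0 and H2bc4, were at 1.57, 1.73 and 0.83-fold. In Leydig-like cells (40 and 281) 7 of 10 were higher and 1, H2bc4, lower (11.1% and 12.6%). The Leydig-like clusters differed in Mki67, with 1 of 130 thinned cells holding a Mki67 UMI in cluster 8, so cluster 6 was also read alone, a choice made after seeing the data. There (39 and 152 cells) 6 of 9 were higher and 1, H2bc4, lower (6.95% and 9.6%), with H2bc4 at 0.373-fold (0.166 to 0.739). In germ-like cells (38 and 211) 2 of 4 were higher and 0 lower (4.62% and 8.97%). These were H1f5 at 2.92-fold (1.21 to 6.61) and H2ac8 at 2.29-fold (0.802 to 5.8), whose interval includes 1. In a split by Top2a (120 and 129 germ-like cells) 0 of 4 were higher (2.27% of genes). The median over the members compared was 6.02-fold in Sertoli-like and 7.44-fold in interstitial-like cells, beside 1.03 and 0.992 over all genes.

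The summed level of the 68 genes was 1824 CPM with and 516 without a Mki67 UMI in Sertoli-like cells, a ratio of 3.53-fold (3.3 to 3.78). In interstitial-like cells it was 3010.0 and 669.6 CPM, 4.49-fold (4.3 to 4.7). The ratio was 3.73-fold (3.31 to 4.19) in Leydig-like, 3.29-fold (3.07 to 3.52) in myoid-like, 3.01-fold (2.63 to 3.44) in coelomic-like and 1.97-fold (1.46 to 2.64) in germ-like cells. The germ-like ratio was the lowest of the 6, resting on 64 and 180 UMIs.

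**Figure D2:**
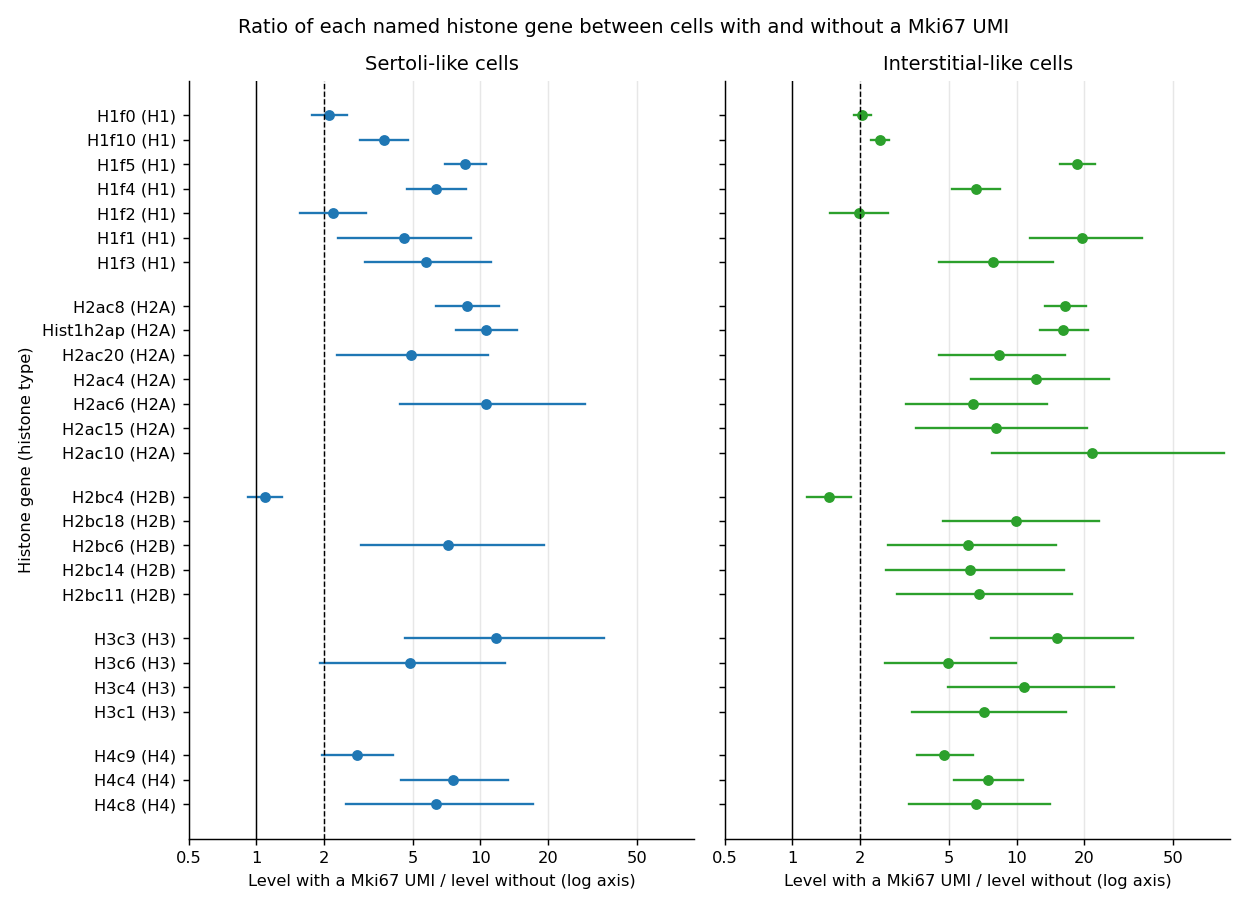
Ratio of the level in cells with a Mki67 UMI to the level in cells without, for leading members with at least 20 UMIs in Sertoli-like (left) and interstitial-like cells (right), on a log axis with the exact 95% interval as bars; the dashed line marks 2. H2bc4 is the lowest point in both panels (1.09 and 1.46), and H1f0, H1f10 and H1f2 lie nearer to 2 than H1f5 (8.56 and 18.7).

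Within the H1 type, H1f5, H1f1, H1f3 and H1f4 had larger ratios than the replacement genes H1f0 and H1f10, though in Sertoli-like cells the intervals of H1f1, H1f3 and H1f4 overlap that of H1f10, and that of H1f1 overlaps that of H1f0. H1f5 was 8.56-fold (6.94 to 10.6) higher in Sertoli-like cells (331 against 38.7 CPM) and 18.7-fold (15.7 to 22.4) in interstitial-like cells (566 against 30.3 CPM). The size of its ratio depended on the reading. In Sertoli-like cells it was 5.83 at 3000 UMIs a cell, 14.8 unthinned and 13.52 in a split by Top2a. In interstitial-like cells it was 8.24, 40.1 and 58.3 under the same readings, and 11.3-fold (8.54 to 15.1) without cluster 5. H1f1 stood 4.55-fold (2.33 to 9.08) and 19.7-fold (11.5 to 36.3) higher, H1f3 5.74-fold (3.05 to 11.1) and 7.88-fold (4.5 to 14.5), and H1f4 6.34-fold (4.7 to 8.62) and 6.57-fold (5.16 to 8.42), in the same order of classes. H1f2 had a smaller ratio, 2.21-fold (1.57 to 3.08) and 1.98-fold (1.47 to 2.67), and in Leydig-like cells 0.953-fold (0.393 to 2.0). The replacement genes also had small ratios. H1f0 was 2.12-fold (1.77 to 2.54) and 2.05-fold (1.88 to 2.23), and H1f10 3.71-fold (2.9 to 4.76) and 2.47-fold (2.24 to 2.71).

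Among the core histone genes the ratios ran widely, with H2bc4 at the low end. Hist1h2ap was 10.6-fold (7.8 to 14.5) higher in Sertoli-like and 16.1-fold (12.7 to 20.8) in interstitial-like cells, and H2ac8 8.71-fold (6.36 to 12.1) and 16.5-fold (13.4 to 20.5). H4c9 stood lower, at 2.83-fold (1.96 to 4.07) and 4.77-fold (3.6 to 6.36), and H4c4 at 7.53-fold (4.41 to 13.3) and 7.44-fold (5.25 to 10.7). H3c3 was 11.8-fold (4.6 to 35.7) and 15.1-fold (7.69 to 33.1) higher. H2bc4 was 1.09-fold (0.919 to 1.3) in Sertoli-like, 1.46-fold (1.16 to 1.82) in interstitial-like, 0.839-fold (0.584 to 1.19) in myoid-like, 0.83-fold (0.37 to 1.78) in coelomic-like and 0.374-fold (0.176 to 0.703) in Leydig-like cells. It was the lowest ratio of the members compared in each of these 5 classes, except that without cluster 5 it was 2.74-fold (2.17 to 3.46) in interstitial-like cells, above H1f0 at 1.92. Its direction depended on the reading. Split by Top2a it was 0.622-fold (0.517 to 0.745) in Sertoli-like and 0.474-fold (0.355 to 0.624) in interstitial-like cells, and with doublets kept 0.787-fold (0.649 to 0.949) in Sertoli-like cells.

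The ratios were also read by the stem-loop. The 13 leading members with a loop that were compared in Sertoli-like cells ran from 2.21 to 11.8 with a median of 6.34, and the 18 in interstitial-like cells from 1.98 to 16.5 with a median of 7.01. Among leading members searched without a match there were 3, H2bc4 (its intron not searched), H1f0 and H1f10, with the ratios given above. The models of H1f5, H1f1, H2ac15, H2ac10 and H2bc18 end within 50 bases of the coding end, so these 5 could not be placed in either set. Members with a loop held 37.5% of the member UMIs. The gene model ran at least 100 bases past the loop in 10 of the 18 leading members with one, and in 10 of the 25 other members with one.

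The levels were also read by the number of Mki67 UMIs in a thinned cell. In interstitial-like cells the core histone sum was 150.1 (139 to 162) CPM at 0, 901 (832 to 975) at 1, 1188 (1087 to 1297) at 2 and 1465 (1382 to 1553) at 3 or more Mki67 UMIs (945, 140, 85 and 156 cells). In Sertoli-like cells it was 277 (259 to 296), 784 (698 to 878), 952 (835 to 1081) and 945 (843 to 1056) CPM (646, 76, 50 and 66 cells), with intervals from 1 upward that overlap their neighbours. H1f5 in interstitial-like cells was 30.3, 366, 482 and 791 CPM. H2bc4 did not follow this order. It was 45.1 (39.2 to 51.6), 95.7 (74.2 to 122), 70.6 (47.6 to 101) and 35.9 (23.9 to 51.9) CPM in interstitial-like cells, and 68.5 (56.9 to 81.8), 100.0 (69.3 to 139.7), 51.4 (23.5 to 97.6) and 10.5 (2.17 to 30.8) CPM in myoid-like cells. Its highest level was in cells with 1 Mki67 UMI in both classes. Without cluster 5 the interstitial-like core sum was 116, 496, 633 and 688 CPM, and H2bc4 46.5, 143, 161 and 76.9 CPM, then highest at 2 Mki67 UMIs.

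**Figure D3:**
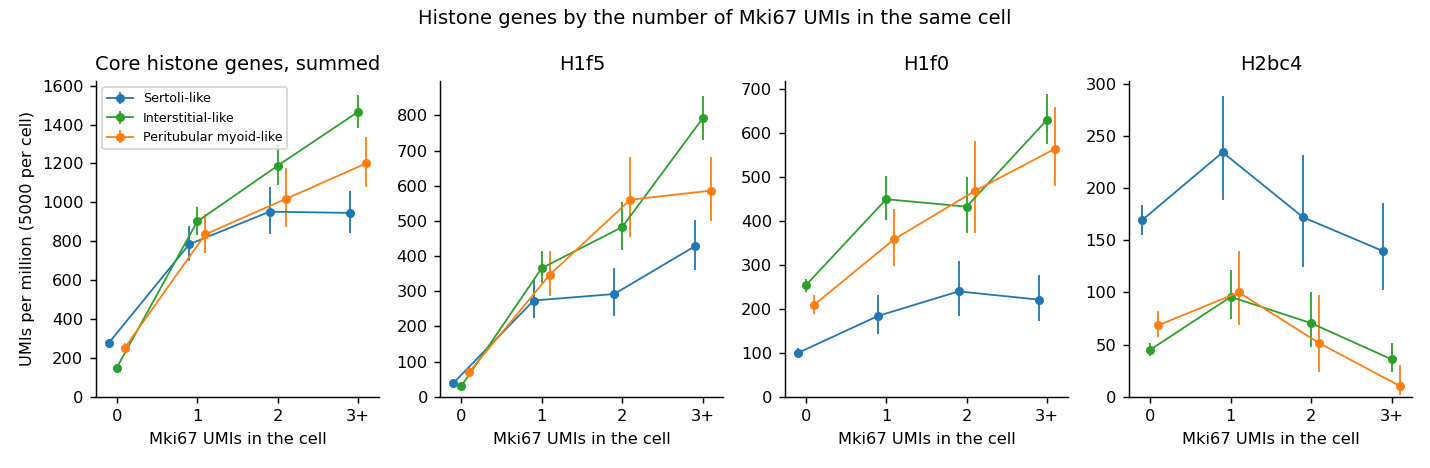
Level in CPM (exact 95% Poisson interval) by the number of Mki67 UMIs in a cell thinned to 5000 UMIs, for the core histone sum, H1f5, H1f0 and H2bc4 in Sertoli-like, interstitial-like and myoid-like cells. The core sum and H1f5 were higher in cells with more Mki67 UMIs in interstitial-like cells, and H2bc4 was highest at 1 Mki67 UMI in each class shown.

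Across the thinned cells of a class the members were uneven. In interstitial-like cells (n = 1326) the member sum ran from 0 to 46 UMIs with a median of 3, and the 10% of cells with most UMIs held 39.5% of them, while for H1f5 the same share was 75.0%. As a description of cells that share 1 library, the member sum and Mki67 had a Pearson correlation of 0.63 in interstitial-like and 0.55 in Sertoli-like cells (n = 838). H1f5 and Hist1h2ap correlated at 0.67 and 0.50, H2bc4 and Mki67 at -0.01 and -0.02, and H1f5 and H2bc4 at -0.09 and -0.15 in these classes.

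Cells were also called to a cycle phase from 43 S and 53 G2/M genes that include neither Mki67 nor the members. Phase calls in germ-like cells were not used, since 215 of 249 were called G2/M. In the 4 classes given here, 5.61% (Leydig-like) to 15.9% (myoid-like) of cells scored within 0.05 of a limit between calls. In Sertoli-like cells (448 G1, 193 S and 197 G2/M) 18 of 18 compared members were highest in the G2/M call, as were 39.4% of genes. In interstitial-like cells (659, 353 and 314) it was 29 of 29 (32.8%), in myoid-like cells (233, 132 and 151) 19 of 20 (37.6%), and in Leydig-like cells (249, 39 and 33) 8 of 10 (33.6%). Without cluster 5, 15 of 15 were highest in the G2/M call of interstitial-like cells (35.5%), while the member sum was 615, 601 and 1921 CPM in G1, S and G2/M calls. Members within that sum differed in order from G1 to S. H1f5 was 7.28, 77.9 and 134 CPM there, H1f0 276, 159 and 546 CPM, and H2bc4 53.7, 8.57 and 175 CPM. In the whole interstitial-like class H1f5 was 7.28, 216 and 519 CPM in the G1, S and G2/M calls, and in Sertoli-like cells 11.2, 136 and 291 CPM. Median depth before thinning was also highest in the G2/M call, at 18543 UMIs against 13184 in G1 of Sertoli-like cells.

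Levels differed among cells called S. Of 193 Sertoli-like cells called S, 159 held no Mki67 UMI and had a member sum of 391 CPM (349 to 437), against 441 CPM (413 to 469.7) in G1-called cells without one, with intervals that overlap. Members ran in opposite directions within these sums. H1f5 stood at 64.2 CPM (47.8 to 84.3) in these S-called and 11.5 CPM (7.44 to 17.0) in these G1-called cells. H2bc4 stood at 31.4 CPM (20.4 to 46.4) and 202 CPM (184 to 222) in the same order. The 34 S-called Sertoli-like cells with a Mki67 UMI had a member sum of 1706 CPM (1515 to 1914). In interstitial-like cells the sum was 539 CPM (499.7 to 581) in 259 cells without and 2564 CPM (2421 to 2713) in 94 with. Without cluster 5 it was 459 and 1535 CPM in 243 and 37 cells. In the whole class H1f5 stood at 52.5 CPM (40.8 to 66.6) and 668 CPM (596 to 746) in those cells.

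H2bc4 stood lower in S-called cells than in either other call in each somatic class compared. It stood at 212 CPM (193 to 232) in G1, 26.9 CPM (17.6 to 39.5) in S and 228 CPM (199.6 to 260.3) in G2/M calls of Sertoli-like cells. In interstitial-like cells it was 53.7 CPM (46.1 to 62.2), 7.93 CPM (4.34 to 13.3) and 93.6 CPM (79.1 to 110.0), and in myoid-like cells 85.8 CPM (69.8 to 104), 7.58 CPM (2.46 to 17.7) and 83.4 CPM (64.1 to 107). It was at least 2-fold lower in S than in both other calls in these classes and in Leydig-like cells (145, 25.6 and 72.7 CPM), where 1.73%, 0.935%, 2.26% and 9.43% of genes were so in the order named. Without cluster 5 the interstitial-like values were 53.7, 8.57 and 175 CPM, which met that rule as 1.15% of genes did. H1f2 met the same rule in Sertoli-like cells, at 26.8 CPM (20.4 to 34.5), 12.4 CPM (6.43 to 21.7) and 83.2 CPM (66.2 to 103), and in Leydig-like cells. Both H2bc4 and H1f2 also met it in coelomic-like cells (44 G1, 48 S and 51 G2/M), as did 120 of 4911 genes there. Within S-called Sertoli-like cells H2bc4 stood at 5.88 CPM (0.149 to 32.8) in the 34 with a Mki67 UMI and 31.4 CPM (20.4 to 46.4) in the others.

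**Figure D4:**
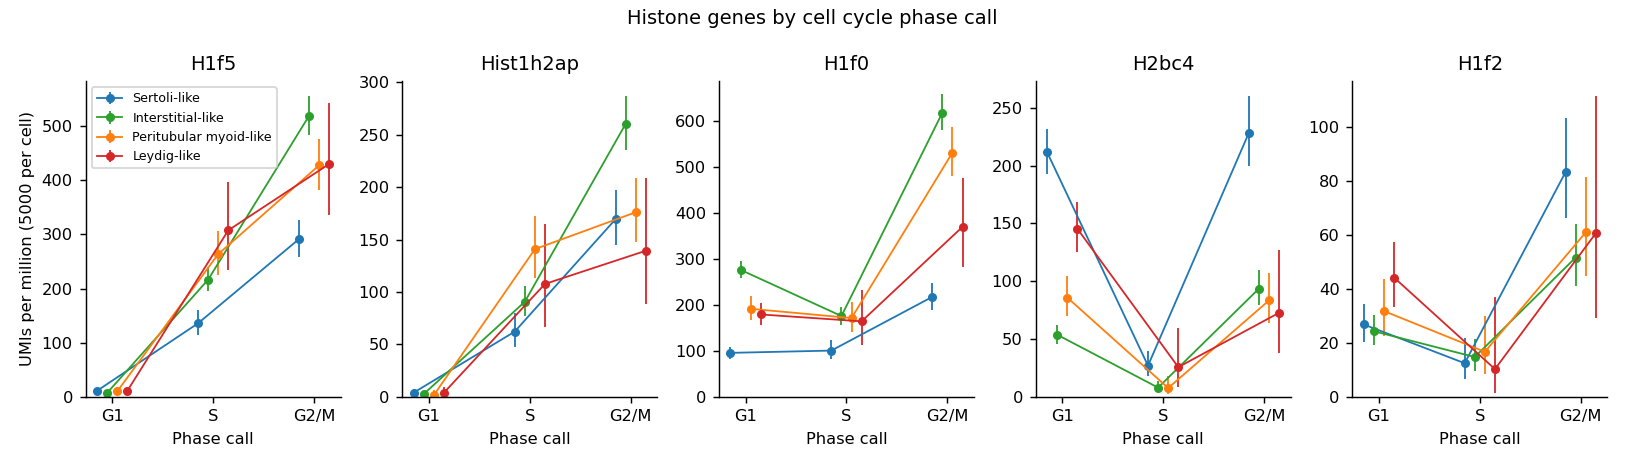
Level in CPM (exact 95% Poisson interval) in cells called G1, S and G2/M, for H1f5, Hist1h2ap, H1f0, H2bc4 and H1f2 in Sertoli-like, interstitial-like, myoid-like and Leydig-like cells; lines join the calls of a class. H1f5 is higher in S than in G1 calls, whereas H2bc4 is lowest in S calls (26.9 CPM in Sertoli-like and 7.93 in interstitial-like cells).

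Other histone genes and the genes that make and carry histones were read beside the members, in lists chosen with these data known. Of 9 variant histone genes, 3 (H2az1, Cenpa and H2ax) were at least 2-fold higher in Sertoli-like cells with a Mki67 UMI and 4 (H2az2 as well) in interstitial-like cells, beside 4.2% and 4.41% of all genes compared. H2az1 stood 2.17 and 3.14-fold higher, H2ax 3.23 and 7.5-fold, and Cenpa, the centromeric H3, 6.62 and 8.47-fold. H3f3a and H3f3b, which encode the replication-independent H3.3, were at 1.0 and 1.03, and at 1.11 and 1.16. Of 14 compared genes of histone making and transport, 3 (Eri1, Asf1b and Chaf1a) were at least 2-fold higher in Sertoli-like and 1 (Asf1b) in interstitial-like cells, where the same 4.2% and 4.41% of genes were so. Slbp, which encodes the stem-loop binding protein, was 1.47 and 1.77-fold higher. In the other classes Slbp was 2.69-fold (1.84 to 3.88) in germ-like, 2.27-fold (1.58 to 3.21) in Leydig-like, 1.62-fold (1.31 to 1.99) in myoid-like and 1.16-fold (0.745 to 1.79) in coelomic-like cells.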

How the data were processed

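The deposited values were UMI counts per gene and barcode of 1 library (10x Genomics Chromium 3′ v3), which the authors produced with Cell Ranger (versions 3.0.2 and 3.1.0 in the submitters' processing notes, builds mm10 and GRCm38). Nothing was normalized before deposit. Barcodes with under 200 genes (372 of 5421) were set aside, 204 doublets (4.04%, a nearest-neighbour score against simulated doublets) and 1024 outliers at 3 median absolute deviations were removed, and 3821 cells were kept. Clusters came from Seurat 5.3.0 and sctransform 0.4.2 in R 4.3.3 (3000 variable genes less the members and Mki67, 30 components, resolution 0.8). Mitochondrial share and the S and G2/M scores, the latter with Mki67 among its genes, were regressed out beforehand. Classes were named X-like from marker lists. Levels are summed UMIs per 1000000 UMIs (CPM). Phases were called with scanpy 1.11.5. Called, for a member, means at least 2-fold, among genes with at least 20 UMIs in the class. There were no replicates, so no p-value was computed, and error is counting error only. The level per class was read with all cells, and the Mki67 and phase readings with cells thinned to 5000 UMIs (166 of 3821 left out). Scripts were tested on simulated data. The text names each member with at least 200 UMIs, with its level in each class of at least 100 cells, and others as counts. The members and lists were chosen with earlier results of these data known. Alternatives tried were other filters, resolution, thinning, count minima, CPM without hemoglobin and mitochondrial genes, a split by Top2a, and, chosen after seeing the data, interstitial-like cells without cluster 5 and Leydig-like clusters read singly. Sequences are from GENCODE vM21 and RefSeq.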

Additional observations from a re-analysis of the deposited data

Results flagged for a closer look

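The 372 barcodes with under 200 genes were outside every comparison, and 46.8% of their UMIs came from hemoglobin genes and 49.2% from mitochondrial genes. They still held 39 UMIs of the 68 histone genes among 1409901, a count above the 3 UMIs that a count of 0 allows. The level was 27.7 CPM (19.7 to 37.8). Without hemoglobin and mitochondrial genes the level was 685 CPM (487 to 937), over 35 barcodes. H2bc4 gave 7 of these UMIs, H2ac8 5, and H4c9, H1f5, H1f2 and H1f0 4 each. The source of these UMIs was not tested.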

How the results depend on the processing

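Of 176 values recomputed under other settings, 126 stayed within their counting interval or within 1.5 times for counts, 48 moved and 2 were labelled reversed. The H2bc4 ratio in interstitial-like cells reversed, from 1.46 by Mki67 to 0.474 by Top2a. The S over G1 ratio of the sum there, also labelled so, went from 1.75 to 0.978 (0.902 to 1.06) without cluster 5, a setting chosen after seeing the data. That interval includes 1, so the difference between S and G1 was lost and not turned round. Without that cluster the interstitial-like sum was 850.4 CPM, its Mki67 ratio 2.96, the H2bc4 ratio 2.74 and the H1f5 ratio 11.3, and 14 members were called higher, of 15 compared. In Sertoli-like cells the H2bc4 ratio, 1.09, was 0.622 by Top2a and 0.787 with doublets kept. The member sum in germ-like cells, 198 CPM, was 245 with doublets kept, 213 at 5 median absolute deviations and 218 without hemoglobin and mitochondrial genes. In interstitial-like cells it was 1639 without those genes, 1342 thinned and 1584 at resolution 1.2, and in Sertoli-like cells 1008 and 816 for the first 2. The Mki67 ratio of the sum was, in interstitial-like cells, 5.14 at 2 Mki67 UMIs, 5.26 unthinned, 4.28 by Top2a, 3.90 at 3000 UMIs, 4.24 with cells classed singly and 4.30 at 5 deviations, and in Sertoli-like cells 3.90, 4.10, 3.24 and 2.95 for the first 4. At 3000 UMIs the S over G1 ratio was 1.51 in Sertoli-like and 2.04 in interstitial-like cells (1.36 and 1.75 at 5000). Members called higher with a Mki67 UMI in Sertoli-like cells were 35 of 36 compared unthinned and 34 of 36 at a minimum of 5 UMIs (17 of 18 in the main setting). In interstitial-like cells they were 47 of 49 at that minimum (27 of 29 in the main setting). More members were thus compared, and the share of all genes called under these settings was not computed. The cause was not tested, except that more UMIs or a lower minimum admit more members and fewer cells fewer. No paired analysis was possible because there was 1 library. Depth limits the scarce members, since 11 had under 10 UMIs.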
